A study of Sus scrofa with 12 samples.

Results

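Transcripts of the constitutive proteasome were examined in the ovaries of 12 sows. The member genes are those whose single symbol in the array annotation begins with PSMA, PSMB, PSMC, PSMD or PSME, without PSMB8 and PSMB9, and each gene is read by the probe set with the highest mean over the sows. The rule gave 36 of the 6765 genes named by a single symbol, read by 41 probe sets of the 24123 on the array. The sows belong to an F2 cross of Iberian and Meishan pigs and were killed on day 30 of pregnancy. By EBV, the estimated breeding value of the sow, the labels place 6 of them in a group of higher and 6 in a group of lower prolificacy, called the high and the low group here. No treatment separates the groups and the labels do not state the age of the sows. A porcine Affymetrix GeneChip was run for each sow, and the series' design text says that right and left ovary were averaged, so all cell types of the organ are mixed in every value. In such bulk tissue, fewer cells of a type and less RNA per cell cannot be told apart.

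The proteasome is the main protease of the cytosol and nucleus and degrades proteins marked with ubiquitin chains. Its 20S core is a barrel of stacked rings, with outer rings of alpha subunits (PSMA genes) that gate the entrance and inner rings of beta subunits (PSMB genes) that hold the proteolytic sites. The 19S particle caps the core, where ATPases (PSMC genes) unfold the substrate and the other subunits (PSMD genes) bind and remove ubiquitin, and PSME genes encode activators that open the core by other means. Under interferon, PSMB8, PSMB9 and PSMB10 replace the constitutive catalytic subunits PSMB5, PSMB6 and PSMB7. The rule leaves PSMB10 among the members, so 1 of the 36 genes is an inducible beta subunit and the label "constitutive" does not describe it. The members also include PSME1 and PSME2, which encode an interferon-induced activator, and PSMD5 and PSMD10, assembly chaperones outside the finished particle.

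All values are deposited GCRMA values on the log2 scale, where a difference of 1 is a doubling. Array medians ran from 4.81 to 4.97. Rank correlations between sows ran from 0.974 to 0.993, and high prolificacy sows 3 and 2 had the lowest mean rank correlation with the others, 0.981 and 0.982. Luteal transcripts were present: all 9 luteal markers on the array passed the filter. Their mean level ran from 12.67 to 13.38 in high sows and from 12.95 to 13.23 in the low group. Lymphocyte markers lay at the array's floor, with 0 of 7 passing and mean levels from 2.43 to 2.61 and from 2.46 to 2.51. The difference between the 3' and 5' probe sets of the actin control, a sign of RNA integrity, ran from 1.95 to 3.23 in the high group and from 1.97 to 2.35 in the low group. Its means were 2.59 ± 0.45 (SD) and 2.12 ± 0.13, so it was not balanced between the groups. Albumin ran from 2.04 to 8.67 in high sows and from 2.16 to 12.61 in the low group.

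All 36 members lay above the filter level of 4 in all 12 sows, with single values between 5.95 and 12.22, so none was lost to the filter. Most stood slightly lower in the high prolificacy group, and in no member was the difference past the threshold. The difference (high minus low) was below 0 in 31 of 36 members, which is 86.1% against 52.4% of the 13390 probe sets tested, and in 29 of 36 after quantile normalization. Among the 1533 tested probe sets in the middle range of member brightness, from 9.42 to 10.91, the share below 0 was 59.6%. The median difference of the members was -0.12, with quartiles of -0.19 and -0.050, beside -0.010 over all probe sets tested and -0.037 over those of like brightness. Because the members vary together across sows, as described below, their 36 differences are not independent measurements. With limma and Benjamini-Hochberg adjustment over all 13390 probe sets, 0 members passed an adjusted p of 0.05, as did 0% of all probe sets tested, and the adjusted p of the members ran from 0.771 to 0.993. At an unadjusted p under 0.05 there was 1 member, PSME3, which is 2.78% of the members against 5.64% of all probe sets. In 0 of 36 members were the groups free of overlap, against 0.471% of all probe sets. The median 95% interval of a member reached 0.27 to either side, so a difference of the size of the median could not be resolved gene by gene with 6 sows a group.

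**Figure D1:**
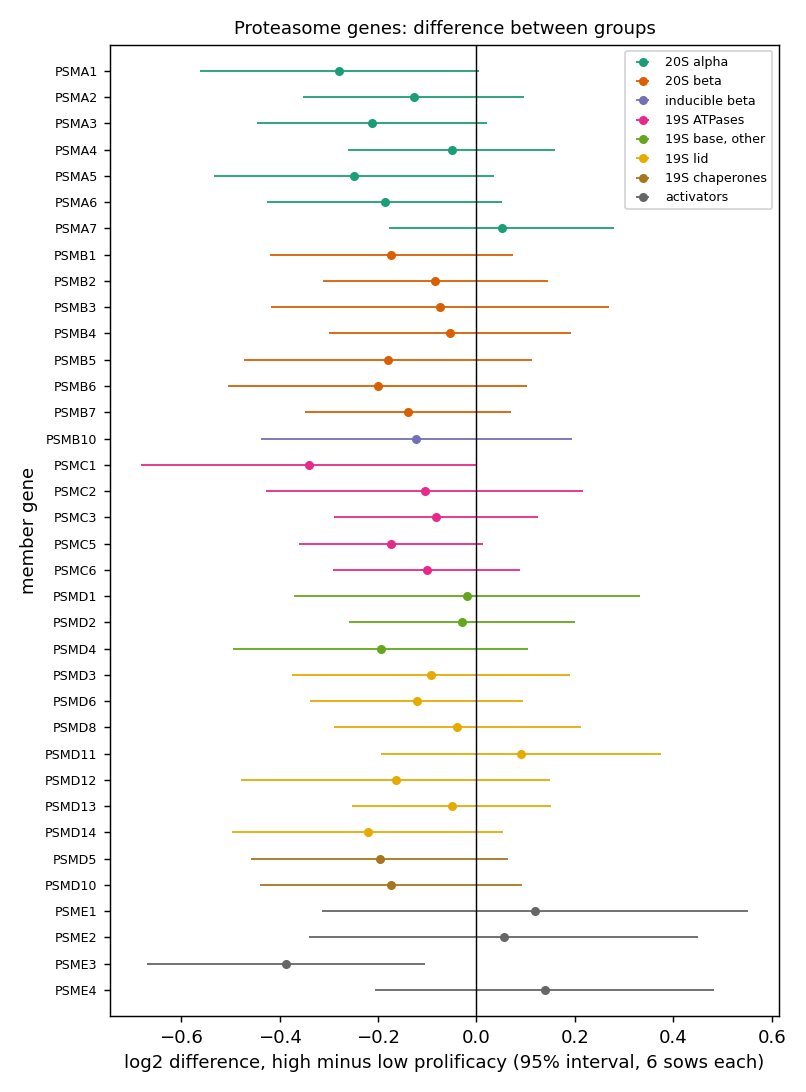
Log2 difference between high and low prolificacy sows (x axis, high minus low, 6 sows each) for each of the 36 member genes (y axis), with points for the difference and bars for limma's 95% interval, coloured by part of the complex. The interval of PSME3, from -0.67 to -0.10, lies wholly below 0, that of PSMC1 ends at 0.00065, and 31 of 36 points lie left of 0.

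The alpha ring of the core was read by 7 genes, of which 6 were lower in the high group, with a median difference of -0.19. PSMA1 ran from 10.36 to 10.85 in the high group (median 10.69) and from 10.63 to 11.28 in the low group (median 10.89). All 6 high sows lay under the low group's mean, but the ranges overlapped, and the highest values belonged to low prolificacy sows 1 and 2. Its group means were 10.66 ± 0.17 (SD, n = 6) and 10.94 ± 0.26, a difference of -0.28 (limma adjusted p = 0.874).

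PSMA3 ran from 11.39 to 11.88 (median 11.86) in high sows and from 11.80 to 12.11 (median 11.998) in the low group. The lowest value was that of high prolificacy sow 3, which stood apart from the others of its group. The difference was -0.21, or -0.14 without that sow and -0.34 with the actin 3' difference as a covariate. PSMA5 ran from 9.71 to 10.22 (median 9.84) and from 9.99 to 10.46 (median 10.06), with 4 of the 6 high sows under the lowest low sow. Its difference was -0.25 (limma adjusted p = 0.888), and -0.14 with array weights. PSMA6 differed by -0.19, PSMA2 by -0.13 and PSMA4 by -0.050. PSMA7, whose probe set had the highest mean signal of the members, was the exception in its ring, at 12.02 ± 0.18 in the high group and 11.97 ± 0.13 in the low. Its difference of 0.051 was 0.010 without high prolificacy sow 4 and 0.13 without high prolificacy sows 2 and 3.

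The constitutive beta ring was read by all its 7 genes, each lower in the high group, with differences from -0.20 to -0.054 and a median of -0.14. The catalytic subunits come first. PSMB5, which carries the chymotrypsin-like site, ran from 10.19 to 10.78 (median 10.44) in high sows and from 10.30 to 10.90 (median 10.57) in the low group. High prolificacy sows 1 and 2 were the lowest of all, and low prolificacy sows 1 and 2 the highest. The difference was -0.18, with a 95% interval from -0.47 to 0.11, and it was -0.10 without high prolificacy sows 2 and 3. PSMB6, which carries the caspase-like site, ran from 10.26 to 10.85 (median 10.66) and from 10.43 to 11.15 (median 10.77). The difference was -0.20, with -0.13 without high prolificacy sow 2, -0.13 without low prolificacy sow 1 and -0.098 with the actin 3' difference as a covariate. PSMB7, which carries the trypsin-like site, ran from 10.68 to 11.03 (median 10.83) and from 10.84 to 11.19 (median 10.97), a difference of -0.14. With the actin 3' difference as a covariate it was -0.062. The 3 genes therefore shared the direction of their ring, and their groups overlapped in every case. Among the structural subunits of the ring, PSMB1 differed by -0.17, PSMB2 by -0.084, PSMB3 by -0.073 and PSMB4 by -0.054.

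PSMB10, the interferon-inducible counterpart of PSMB7, was also lower in the high group, by about the median of the members, but its sign was not stable. It ran from 5.95 to 6.94 (median 6.67) in high sows and from 6.49 to 6.89 (median 6.71) in the low group. A single sow, high prolificacy sow 2, lay far under the other 11. The difference was -0.12 with all sows, 0.0062 without that sow and 0.023 without high prolificacy sows 2 and 3, so its sign rests on that animal. The sign also turned with array weights and with the actin 3' difference as a covariate. High prolificacy sow 2 had the largest actin 3' difference of the 12, 3.23. High prolificacy sow 4 had the next largest, 2.98, with a PSMB10 value of 6.68. The part of RNA integrity in the PSMB10 values was not tested.

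**Figure D2:**
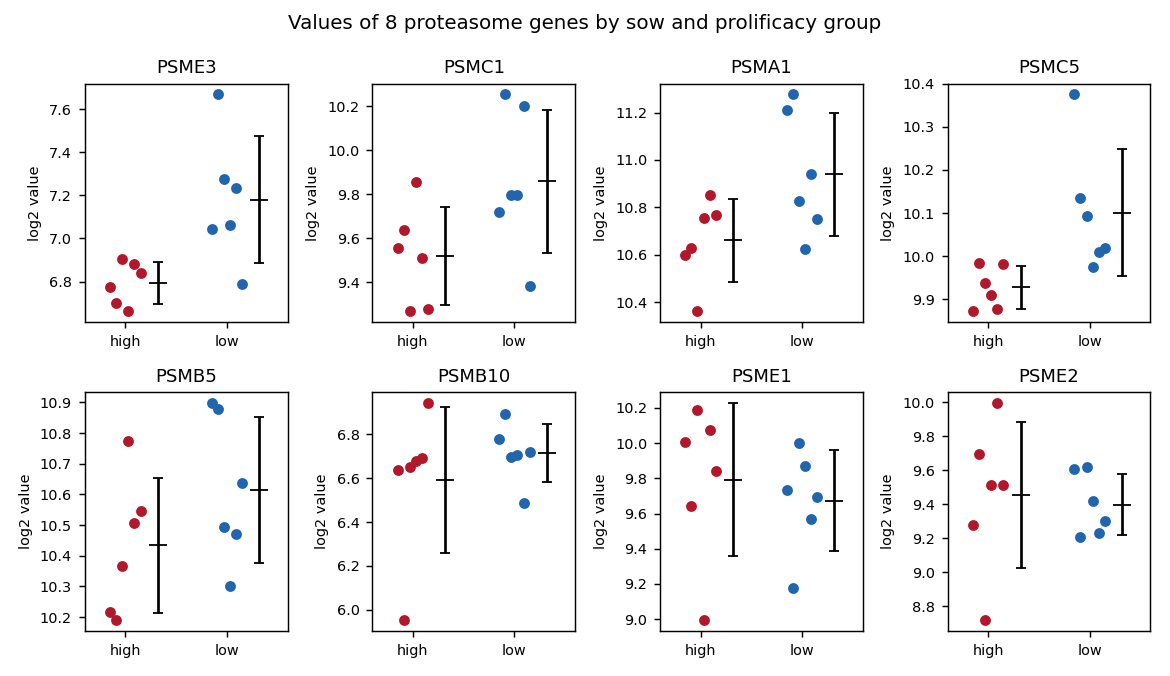
Log2 values (y axis, scaled separately for each gene) of PSME3, PSMC1, PSMA1, PSMC5, PSMB5, PSMB10, PSME1 and PSME2 in each sow, by prolificacy group (x axis), ordered by animal number from left to right within a group, with the mean and SD of 6 sows as a black bar beside them. The groups overlap in every gene; 1 high sow sits far below the rest in PSMB10, at 5.95, and 1 low sow far above them in PSME3, at 7.67.

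The ATPase ring of the 19S base was read by 5 genes, PSMC4 being not analysed here, and all were lower in the high group, with a median difference of -0.10. PSMC1 had the widest difference of the ring. It ran from 9.27 to 9.86 (median 9.53) in high sows and from 9.38 to 10.25 (median 9.80) in the low group, where low prolificacy sows 2 and 5 were highest. All 6 high sows lay under the low mean, but only 2 of the 6 low sows exceeded the highest high sow. The means were 9.52 ± 0.22 (SD, n = 6) and 9.86 ± 0.32, a difference of -0.34 (limma adjusted p = 0.874), or -0.53 with the actin 3' difference as a covariate (adjusted p = 0.229, the lowest of its alternatives). PSMC5 varied little within the high group, from 9.87 to 9.99 (median 9.92), against 9.98 to 10.38 (median 10.06) in the low group. Of the low sows, 5 of 6 exceeded every high sow, and low prolificacy sow 4 lay at the upper end of the high range. Its difference was -0.17 (limma adjusted p = 0.874), and -0.12 without low prolificacy sow 1, the highest. PSMC6 ran from 11.29 to 11.64 (median 11.52) and from 11.43 to 11.73 (median 11.61), and its SD over the 12 sows, 0.12, was the smallest of any member. Its difference was -0.10, and -0.032 without high prolificacy sows 2 and 3. PSMC2 differed by -0.10, and by -0.094 and -0.14 in its dimmer probe sets, and PSMC3 by -0.082.

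The other subunits of the 19S base include the largest scaffold proteins and ubiquitin receptors of the particle. PSMD4, a ubiquitin receptor, ran from 6.26 to 7.02 (median 6.60) in high sows and from 6.45 to 7.11 (median 6.80) in the low group. The difference was -0.19, with -0.13 without high prolificacy sow 1, the lowest, and -0.35 with the actin 3' difference as a covariate. The scaffold genes PSMD1 and PSMD2 differed by only -0.019 and -0.029, and the second probe set of PSMD1 by -0.11. In the lid, which holds the deubiquitinase, 6 of the 7 genes read were lower in the high group, with a median of -0.092. PSMD7 was not analysed here. PSMD14, the deubiquitinase that strips ubiquitin chains as substrates enter, ran from 10.12 to 10.67 (median 10.56) and from 10.44 to 10.88 (median 10.64). High prolificacy sows 1 and 3 were the lowest, and the other 4 high sows lay within the low range. Its difference was -0.22, with -0.13 under array weights and -0.38 with the actin 3' difference as a covariate. PSMD12 differed by -0.16, PSMD6 by -0.12, PSMD3 by -0.092, PSMD13 by -0.050 and PSMD8 by -0.039. PSMD11 was higher by 0.091 in its brightest probe set and lower, by -0.12 and -0.16, in its other probe sets, so that its direction depends on the probe set. PSMD5 and PSMD10, which act as chaperones in assembly of the base and are not part of the finished particle, differed by -0.20 and -0.17.

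The activators did not share a direction. PSME3, the nuclear activator PA28 gamma, had the smallest p of the members. It ran from 6.66 to 6.90 (median 6.81) in high sows and from 6.79 to 7.67 (median 7.15) in the low group. Of the low sows, 5 of 6 exceeded every high sow, and low prolificacy sow 6 lay within the high range. The means were 6.79 ± 0.098 (SD, n = 6) and 7.18 ± 0.30, a difference of -0.39, or 1.31-fold, with a limma unadjusted p of 0.0114 and an adjusted p of 0.771. The difference ran from -0.47 to -0.29 with each sow left out in turn, and the smallest of these was without low prolificacy sow 2, which held the highest value. PSME4, the large activator PA200, was higher by 0.14 in the high group.

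PSME1 and PSME2 encode the alpha and beta subunits of PA28, the interferon-induced activator that caps the core as a mixed ring. PSME1 ran from 8.995 to 10.19 (median 9.92) in high sows and from 9.18 to 9.998 (median 9.71) in the low group. High prolificacy sow 4 and low prolificacy sow 2 were the lowest of their groups. The means were 9.79 ± 0.43 and 9.67 ± 0.29, a difference of 0.12, which was 0.28 without high prolificacy sow 4 and 0.020 without low prolificacy sow 2. With the actin 3' difference as a covariate it was 0.46. PSME2 ran from 8.72 to 9.99 (median 9.51) and from 9.21 to 9.62 (median 9.36), with both extremes in the high group, sows 3 and 5. Its difference of 0.055 turned to -0.053 without high prolificacy sow 5 and to -0.19 with the actin 3' difference as a covariate. PSME1 and PSMC1 had the largest SDs over the 12 sows among the members, 0.36 and 0.32, followed by PSME2 at 0.32. The 2 partners did not follow each other over the 12 sows, with Pearson r of -0.032 (permutation p = 0.918) and Spearman rho of 0.056 (permutation p = 0.868). The pair was chosen after its values had been seen. Pearson r was -0.18 without high prolificacy sow 4 and low prolificacy sow 2, -0.27 within the high group (exact permutation p = 0.608) and 0.76 within the low group (exact permutation p = 0.0417, not adjusted).

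The subunits varied together from sow to sow. Over the 630 pairs of members the median Pearson r was 0.44, beside 0.028 over all pairs of 5079 genes, and 41.6% of member pairs exceeded 0.5 against 12.5% of all gene pairs. With the group means removed the medians were 0.40 and 0.029. These correlations are over 12 sows, and values of a sow share the array and the RNA sample. The 5079 genes were not matched to the members in brightness. Among the 14 constitutive core genes the median was 0.65, and all 91 pairs were above 0. It was 0.58 within the high group, 0.78 within the low group and 0.47 without low prolificacy sows 1 and 2. Between the core and the 15 genes of the 19S base and lid the median was 0.51. Within the ATPases alone it was 0.32. The closest pair of all members was PSMB5 with PSMA4, at r = 0.928, followed by PSMD6 with PSMA6 at 0.905 and PSMD14 with PSMA3 at 0.897.

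The shared variation set a few sows apart. The median deviation of the 36 members from their gene means was 0.20 in low prolificacy sow 1 and 0.21 in low prolificacy sow 2. It was -0.21 in high prolificacy sow 1, -0.15 in high prolificacy sow 3 and -0.12 in high prolificacy sow 2. The remaining 7 sows, of both groups, lay between -0.074 and 0.085. In low prolificacy sow 1, 35 of 36 members exceeded their gene mean, and in high prolificacy sow 1 the count was 1 of 36. Low prolificacy sows 1 and 2 held the highest value in 12 and 11 members, and high prolificacy sows 1, 3 and 2 the lowest in 12, 9 and 8. The 12 sow medians had an SD of 0.13, about the size of the median difference between groups. Members varied little in absolute terms: their median SD over the sows was 0.21, beside 0.25 for probe sets of like brightness and 0.29 for all tested.

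**Figure D3:**
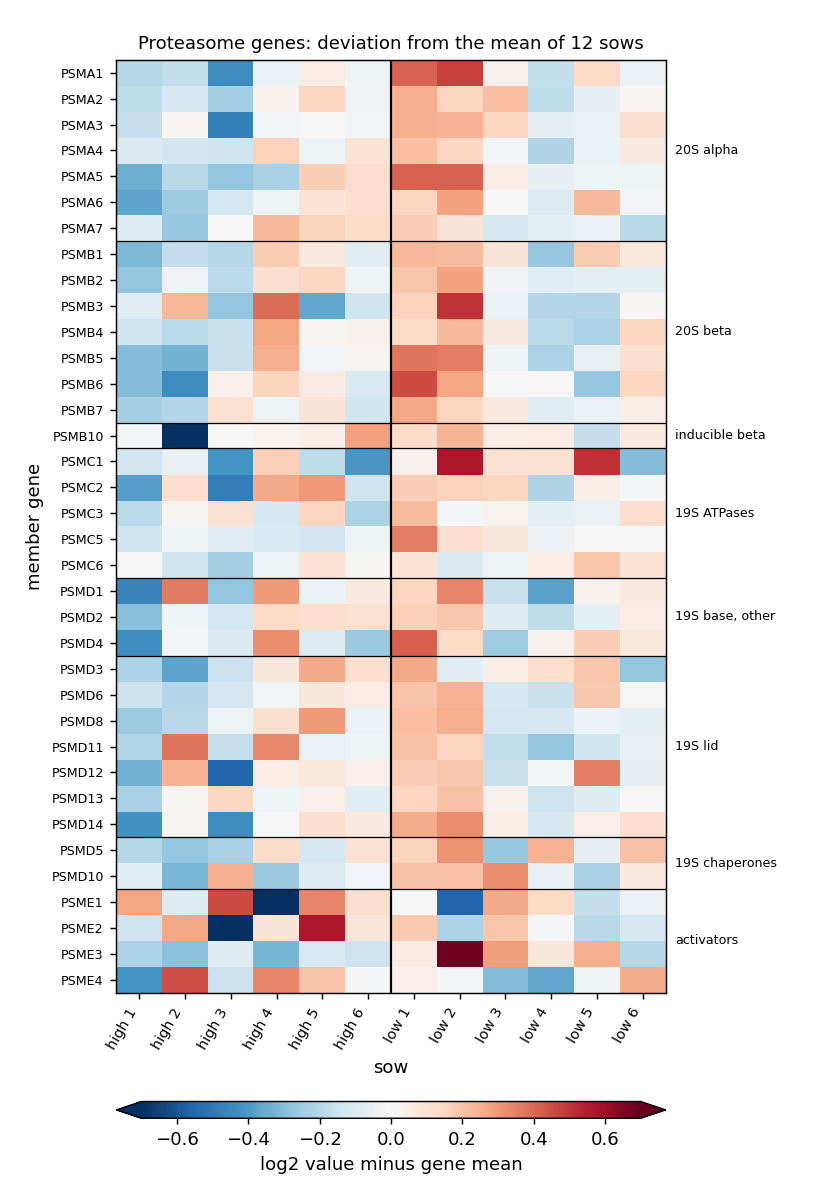
Deviation of each member gene's log2 value from its mean over 12 sows (colour, red above and blue below), with genes in rows by part of the complex and sows in columns, high prolificacy to the left of the vertical line. The columns of low prolificacy sows 1 and 2 are red in most rows and that of high prolificacy sow 1 is blue in nearly all, while PSME1 at the foot departs from the pattern of the core.

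PSME1 ran against the 14 core genes and 13 of the 15 genes of the 19S base and lid. Its Pearson r with the 14 core genes had a median of -0.48 and was below 0 with all 14. The lowest r of any pair of members was PSME1 with PSMB3, at -0.83. Without high prolificacy sow 4 and low prolificacy sow 2 the median was -0.24, with 10 of 14 below 0, so the size of the inverse relation depends on those sows. The same 2 sows had the lowest mean level of the 4 smooth muscle markers on the array, 8.60 and 8.82, against 9.01 to 10.45 in the other 10 sows. The smooth muscle list ran from 8.60 to 10.45 in high sows and from 8.82 to 9.88 in the low group, and all 4 of its markers passed the filter. High prolificacy sow 4 and low prolificacy sow 2 were also the highest of their groups for the luteal markers, 13.38 and 13.23. For the 2 theca markers, of which 1 passed the filter, they were the lowest of their groups, 5.30 and 4.59. The part of these cell types in the PSME1 values was not tested. PSME2 had a median r of 0.19 with the core, PSME3 of 0.42, PSME4 of 0.25 and PSMB10 of 0.47.

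**Figure D4:**
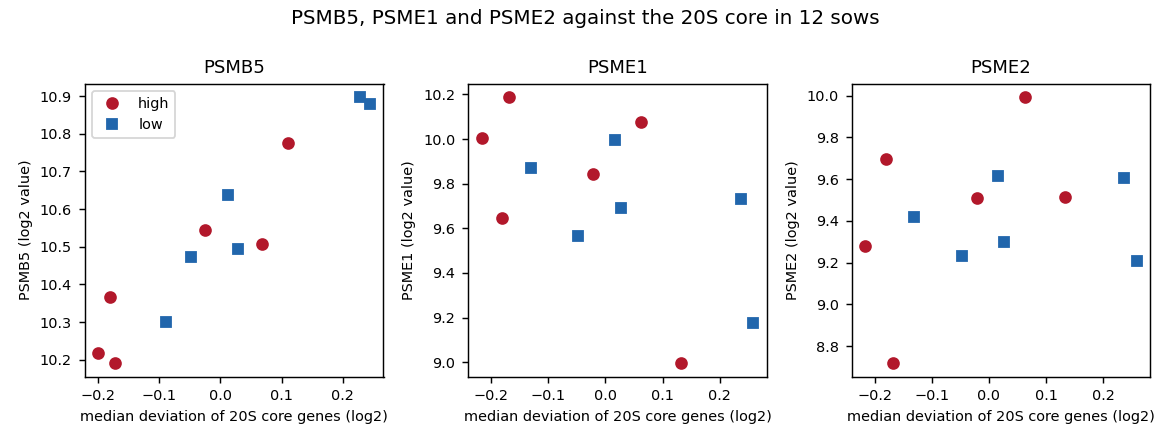
Log2 value of PSMB5, PSME1 and PSME2 in each sow (y axes) against the median deviation of the 20S core genes in that sow (x axis, log2, PSMB5 left out of the median in its own panel), with circles for high and squares for low prolificacy sows. PSMB5 is higher in sows with a higher core, PSME1 is lowest in the 2 sows at 8.995 and 9.18, and PSME2 shows no clear slope.

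The inducible subunits were set beside the constitutive ones. PSMB8, the counterpart of PSMB5, ran from 5.87 to 7.26 (median 6.22) in high sows and from 5.91 to 6.07 (median 5.99) in the low group. High prolificacy sow 5 held the highest value, and the low sows lay within a narrow band. The means were 6.32 ± 0.50 and 5.99 ± 0.053, a difference of 0.33 (limma adjusted p = 0.899). PSMB9 was not analysed here. The log2 value of PSMB8 minus that of PSMB5, centred on the 12 sows, had a mean of 0.25 over the high group against -0.25 over the low group, and was 1.12 in high prolificacy sow 5 and -0.55 and -0.54 in low prolificacy sows 1 and 2. For PSMB10 minus PSMB7 the group averages were 0.0082 and -0.0082. Interferon-responsive genes, of which 16 were tested, were higher in the high group in 15, while 52.4% of all probe sets tested were lower there. The exception was B2M, at -0.063. Of the 16 genes, 0 passed the limma adjusted threshold, and 2, OAS1 and GBP1, had a limma unadjusted p under 0.05, against 5.64% of all probe sets. Their values come from the same 12 sows, so these counts are not of independent measurements. The mean level of the 18 list genes on the array ran from 5.57 to 7.34 in high sows and from 5.54 to 6.90 in the low group.

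Correlation with PSMB8 was computed for 6 genes over the 12 sows. PSME2 had the largest, with Pearson r = 0.67 (permutation p = 0.0367, adjusted p = 0.220) and Spearman rho = 0.59 (permutation p = 0.0486, adjusted p = 0.291). It was 0.47 without high prolificacy sows 5 and 6, the farthest from the PSMB8 median. Within the high group it was 0.75 (exact permutation p = 0.0444, unadjusted) and within the low group 0.55 (exact permutation p = 0.264). For PSMB10 r was 0.15, for PSME1 0.14, for PSMB5 0.043, for PSMB6 0.032 and for PSMB7 0.011, all with an adjusted permutation p of 0.973. Their Spearman rho values were 0.014, 0.13, -0.042, -0.24 and -0.37, with adjusted permutation p values from 0.710 to 0.973. Without high prolificacy sows 5 and 6 the Pearson r of these genes was 0.020, -0.57, 0.18, -0.00069 and -0.29, in the same order. The values of PSMB8 in 11 sows lay between 5.87 and 6.37, so the Pearson coefficients weigh high prolificacy sow 5 heavily.

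Genes that build, feed or regulate the proteasome gave 0 past the limma adjusted threshold in each list. Over all probe sets tested, 52.4% were lower in the high group. Of 2 assembly chaperones of the core tested, PSMG1 was lower by -0.049 and PSMG3 higher by 0.037. Of 7 other subunits, bound factors and inhibitors, 3 were lower and 4 higher, among them the small lid subunit SEM1 at -0.11, the ATPase-binding PAAF1 at -0.25 and the ubiquitin-binding ZFAND5 at 0.16. The inhibitor PSMF1 stood at 7.53 ± 0.11 in the high group and 7.52 ± 0.13 in the low. Of 12 ubiquitin genes and conjugating enzymes 8 were lower and 4 higher, with a median of -0.033. UBE2N, which builds ubiquitin chains used in signalling, differed by -0.19, UBE2K by -0.15 and UBE2V1 by -0.14, and the ubiquitin gene UBB stood at 14.18 ± 0.057 and 14.21 ± 0.045.

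Of 6 tested genes of the p97 segregase, which extracts ubiquitinated proteins, and its adaptors, 4 were lower and 2 higher in the high group, with a median difference of -0.076. The share lower over all probe sets tested was 52.4%. UBXN4, an adaptor at the endoplasmic reticulum membrane, ran from 10.17 to 10.36 in high sows and from 10.38 to 10.60 in the low group. The groups did not overlap in this gene, as in 0.471% of all probe sets tested. Its difference was -0.20 (limma unadjusted p = 0.0249, adjusted p = 0.834). UFD1 differed by -0.17 and FAF2 by -0.11, and p97 itself, VCP, stood at 11.06 ± 0.19 and 11.10 ± 0.16. Of the regulators of proteasome genes only STAT3, NFYB and NFYC were read by probe sets used here, and they differed by -0.039, -0.054 and 0.055. The main transcriptional activators of proteasome genes under proteasome stress, NFE2L1 and NFE2L2, were not analysed here.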

How the data were processed

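Log2 expression values per probe set were used as deposited. The submitters' processing notes name GCOS and GCRMA (background correction, normalization between arrays and probe summary) without versions. A log2 scale was inferred, since values ran from 0.970 to 15.34. Whether tissue, RNA or values of the ovaries were averaged is not stated. Symbols came from the array annotation (10099 probe sets with 1 symbol, 198 with several, 13826 with none), and an update by Entrez ID changed 0. The names of 62 porcine control probe sets were taken to be displaced by 21 places. After they were put back, the mean absolute gap over 19 pairs of spike controls was 0.451 in place of 5.17. The actin 3' difference uses these names, and the actin probe sets are not among the 19 pairs.

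After leaving out 124 control probe sets, the 13390 above 4 in at least 6 sows were fitted with lmFit and eBayes of limma 3.58.1 (R 4.3.3), high against low with no covariate, with two-sided p and Benjamini-Hochberg adjustment over all of them. The fit was tested on simulated data with independent probe sets. The differences added there were larger than that of any member, so differences of the members' size were not covered. Each sow is 1 replicate, and the number of sows limits precision. Permutation tests of correlations were two-sided, with 100000 resamples, and exact within groups. The members, lists and naming rule were chosen with earlier results of these data known. Full values are given for the 6 members of smallest p, the 3 of largest SD, the 2 of brightest and 2 of dimmest signal, and a fixed set of subunits, and up to 3 genes of smallest p are named in each other list. UBB, VCP, PSMF1 and B2M were added for their roles, with values known. Signals of different probe sets were not compared as transcript levels. No sequence or coordinate is given. The alternatives were other filters, normalizations, moderation, array weights, covariates, a replicate block, the mean of a gene's probe sets and leaving out sows.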

Additional observations from a re-analysis of the deposited data

Results flagged for a closer look

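In 76 sets of 6 values (each member, PSMB8 and the sow medians in each group), 4 had a sow standing apart from the others of its group by Dixon's test, where chance flags about 1 in 20. PSMB8 was 7.26 in high prolificacy sow 5, with the next highest of that group at 6.37. PSMB10 was 5.95 in high prolificacy sow 2, with the next lowest at 6.64. PSMA3 was 11.39 in high prolificacy sow 3, with the next lowest at 11.71. PSMB1 was 10.61 in low prolificacy sow 4, with the next lowest at 10.95.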

How the results depend on the processing

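The count of members past the limma adjusted threshold was 0 under every alternative run. Over all probe sets it was 0 under every alternative except without low prolificacy sow 1, where it was 1, and leaving out each sow in turn thus gave 0 to 1. At a limma unadjusted p under 0.05 there were 755 of 13390 probe sets (5.64%) and 1 of 36 members (2.78%) in the main fit. With the actin 3' difference as a covariate there were 2178 of 13390 probe sets and 7 of 36 members. The count thus rose over all probe sets and not in the members alone. The median difference of the members, -0.12, ran from -0.16 to -0.093 with each sow left out, with 27 to 32 of 36 members lower in the high group. Under the other alternatives it ran from -0.16 with the actin 3' difference as a covariate to -0.088 with array weights, with 25 to 32 members lower, the fewest without high prolificacy sows 2 and 3. With the animal number as a replicate block the median was -0.12 and 0 members passed, so the block changed no call. Same-numbered animals share only a number: the mean correlation of their deviations was -0.033, with 2 of 6 pairs over 0.1. Correlations with PSMB8 passed the adjusted threshold under no alternative. A second probe set of PSMB8 was not run, since the gene has 1 probe set here. Depth does not apply to arrays, and the number of sows limits precision.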
